A study of Mus musculus with 144 samples.

Results

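The lysosomal proton pump, membrane and hydrolase genes are 33 of the 55364 genes in the deposited table, taken by name as a set of known lysosomal components. Of these, 15 encode subunits of the proton pump or proteins that assemble with it, 6 encode proteins of the lysosomal membrane, and 12 encode hydrolases or the proteins that activate or accompany them. All 33 were found in the table. They were measured in single cells labelled as microglia, which are macrophages that live in nervous tissue, sorted by flow cytometry from the retinas of Iba1-EGFP mice on the C57BL/6 background, aged 20 to 22 months. Iba1, the product of Aif1, is also made by other macrophages and by monocytes, so the transgene does not by itself separate microglia from them. The uncrushed group held 54 wells from eyes without treatment, and the crushed groups held 36 wells at day 2 and 54 at day 4 after crush of the optic nerve, the bundle of retinal ganglion cell axons. The labels give no animal for any well, and each group therefore counts as 1 sample. No test was made, and every value describes these wells.

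The lysosome digests material that a cell has engulfed or recycles, and its enzymes need an acid interior. That acid is made by the vacuolar ATPase, a rotary pump in which a peripheral V1 part splits ATP and a V0 part in the membrane carries protons inward. Heavily glycosylated membrane proteins such as LAMP1 and LAMP2 line the inside of the membrane, and many hydrolases cut sugars, lipids and proteins. Microglia are professional phagocytes, and many genes of this system share a promoter element, named CLEAR, that is bound by the transcription factors TFEB and TFE3.

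Depth set what could be seen. The reads recovered from the deposited values split the wells into 88 deep wells (60079 to 8065065 reads) and 56 shallow wells (643 to 14205 reads), and all results below are from deep wells unless stated otherwise. There were 39 uncrushed, 25 day 2 and 24 day 4 deep wells, and only 2 of the day 4 wells were on plate 3. Genes with a read per deep well also differed, with medians of 3161, 3777 and 4992, and this difference moves with the results below; its part in them was not tested. On plate 1, 18 wells titled day 4 (12 of them deep) carry a treatment tag of day 2 and were kept at day 4. On all 3 plates the groups sat in separate rows, so group and row cannot be told apart. Of 11 microglia markers the median deep well held 8, 8 and 9 at 10 or more reads. At least 3 of them were held by 37 of 39 uncrushed, 22 of 25 day 2 and 22 of 24 day 4 wells. At least 3 of 10 neutrophil markers were held by 1 uncrushed, 6 day 2 and 3 day 4 wells, and at least 3 of 13 rod photoreceptor markers by 4, 1 and 1. For 8 markers of Muller glia and astrocytes these numbers were 2, 1 and 2. Results given without neutrophil or rod wells leave out no well for its microglia, Muller glia or astrocyte markers.

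Promoter sequence was given for 27 of the 33 genes. These are RefSeq windows on GRCm38.p6, from 250 bases before to 50 after the listed start of transcription, 31 windows in all. The letters CACGTG, which read the same on both strands and are the centre of the CLEAR element, stood in the windows of 7 of 27 genes, against 8.09% of all 27025 genes with a window. By class these were 4 of 11 pump genes, 1 of 5 membrane genes and 2 of 11 hydrolase genes. All 7 also held the longer form TCACGTG on one strand or the other, against 4.29% of genes. The form TCACGTGA, extended on both sides, stood in 3 of 27 genes, all of the pump, against 1.12%. These 3 motifs are nested, so the counts overlap. The members were taken as known lysosomal genes, many of which share this element, so a higher share here is no independent support for it. G and C made up a median of 56% of bases in the 31 member windows and 52.67% in all windows. The 7 windows are shown because they carry the centre of the element. Each is cut to the bases around its copies, 5′ to 3′ on the gene's strand, with CACGTG in capitals.
Atp6v0b: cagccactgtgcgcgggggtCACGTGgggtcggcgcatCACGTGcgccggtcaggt
Atp6v0d1: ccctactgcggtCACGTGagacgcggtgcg
Atp6v0e: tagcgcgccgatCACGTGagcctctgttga
Atp6v1a: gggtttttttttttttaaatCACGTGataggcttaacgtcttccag
Gaa: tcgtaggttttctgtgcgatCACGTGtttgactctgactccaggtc
Lamp1: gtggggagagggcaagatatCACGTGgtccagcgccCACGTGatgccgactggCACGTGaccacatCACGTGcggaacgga
Lgmn: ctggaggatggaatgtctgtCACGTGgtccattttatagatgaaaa

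Lamp1 held 4 copies within 81 bases before its start (chr8:13159080-13159160, plus strand), a number found in 8 of all 32851 windows. Atp6v0b held 2 copies (chr4:117887330-117887385, minus strand), and 0.594% of windows held 2 or more. The single copy of Atp6v0d1 (chr8:105566050-105566079, minus strand) began 3 bases before the listed start and that of Atp6v0e (chr17:26676387-26676416, plus strand) 3 bases past it. Those of Atp6v1a (chr16:44139365-44139410, minus strand), Gaa (chr11:119267803-119267848, plus strand) and Lgmn (chr12:102439116-102439161, minus strand) began 131, 140 and 49 bases before it. The letters TATAAA, searched for comparison on both strands, stood in 4 of 27 genes against 15.7% of all genes. A match describes the letters in these windows. It is not a measured binding site, and no match says only that the letters are not in the window.

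Most of these genes were found in a minority of uncrushed wells, and a larger share of wells held them at day 4. With a gene counted as held at 10 or more reads, the share of wells was higher at day 4 than in uncrushed retina for 33 of 33 genes. The median share over the 15 pump genes was 17.9% for uncrushed wells, 32% at day 2 and 45.8% at day 4. This has to be read against all genes: of 2057 genes held by 25% or more of the day 4 and uncrushed wells together, 92.7% had a higher share at day 4. At day 2 the share was higher than in uncrushed retina for 26 of 33 genes (background 80.2% of 1588 genes), and from day 2 to day 4 it was higher for 28 of 33 (background 85.5% of 2980 genes). The members' counts are read against these backgrounds and lie near them, although not all members were held by 25% of wells. After every deep well was thinned to 50000 reads, with 1 read counted, 31 of the 33 shares were higher at day 4, 1 was lower and 1 was equal. No share over all genes stands beside this count. Thinned wells still had medians of 1251 genes with a read in uncrushed retina and 2219 at day 4.

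**Figure D1:**
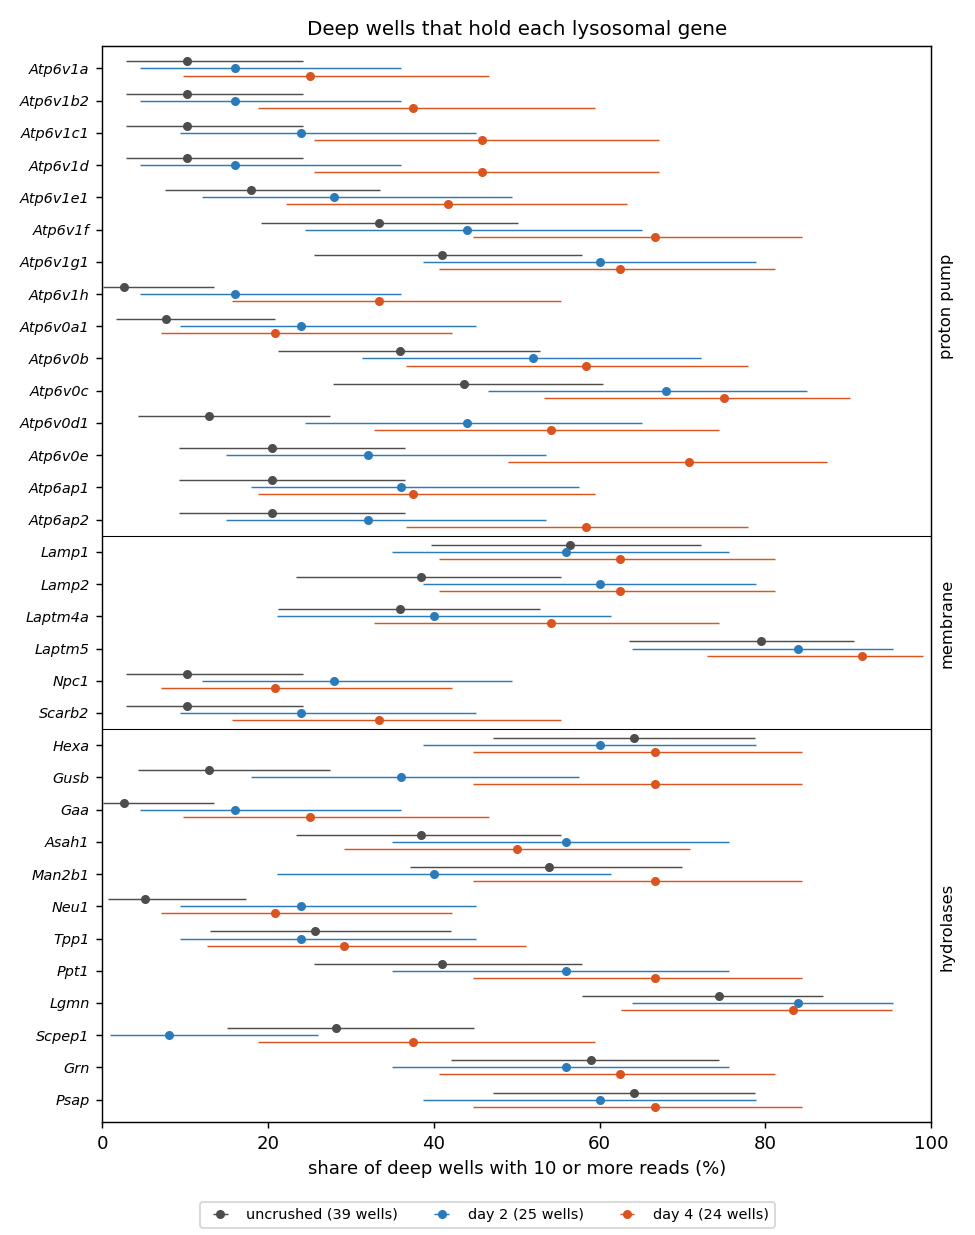
Share of deep wells with 10 or more reads of each of the 33 genes (horizontal axis, percent) for the 39 uncrushed, 25 day 2 and 24 day 4 wells, ordered by class. Points are shares, and lines are exact 95% Clopper-Pearson intervals, which cover counting error alone. Gusb and Atp6v0e stand furthest to the right at day 4 relative to uncrushed wells, while Laptm5 and Lgmn are high in all 3 groups.

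The difference in mean log2(FPKM + 1) between day 4 and uncrushed wells was above 0 for 30 of 33 genes, where the background was 82.3% of 11089 genes (those at FPKM 1 in 5% of wells). FPKM is fragments per kilobase of gene length per 1000000 fragments, a level per length. All 33 members passed that filter. The difference was 1 or more for 20 of 33 (background 26.5%) and -1 or less for 0 (background 0.712%), with a median of 1.13 over the members and 0.51 over all genes. In the wells between 2636 and 5145 genes the counts were 3 at 1 or more and 10 at -1 or less, with a median of -0.04 over all genes. No share of all genes at 1 or more or -1 or less in those wells stands beside these counts. The background was higher among genes found more often: among genes held by 25% or more of wells the background was 53.4% at 1 or more and 2.67% at -1 or less. There, 14 of 23 members (60.9%) were at 1 or more, with a median of 1.09 over these members and 1.11 over the genes. By class the split was uneven: 8 of 9 pump genes, 2 of 4 membrane genes and 4 of 10 hydrolase genes of this subset were at 1 or more. The filter pools the groups compared, so a gene can pass it through its day 4 wells. Atp6v0e (held by 8 uncrushed and 17 day 4 wells), Atp6v0d1 (5 and 13) and Gusb (5 and 16) passed in this way. The split is therefore no independent support for a difference between the classes.

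The pump genes had the highest median of the 3 classes at day 4. Over all 15 the median difference was 1.68 (0.25 to 3.35), with 15 of 15 above 0 and 12 at 1 or more. The backgrounds were 82.3% above 0 and 26.5% at 1 or more. The 8 V1 genes had a median of 1.73, the 5 V0 genes 1.63 and the 2 accessory genes 1.96. Within plates the pump median was 1.08 on plate 1, 2.73 on plate 2 and -0.85 on plate 3, where day 4 had 2 deep wells. The medians of all genes on these plates were 0.52, 0.75 and -0.43. Among genes held by 25% or more of wells they were 1.11, 1.82 and -1.92. On plates 1 and 2 taken separately, 13 of 15 pump genes were above 0 in both. Of all genes, 77.4% were above 0 on plate 1 and 83.3% on plate 2. In the 23 uncrushed and 10 day 4 wells whose number of genes lay between 2636 and 5145 (the interquartile range), the pump median was 0.33. Without the wells with neutrophil or rod markers the pump median was 2.03, with 15 of 15 above 0. There, 82.3% of all genes were above 0, with a median of 0.50. Among genes held by 25% or more of wells these were 86% and 1.35.

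**Figure D2:**
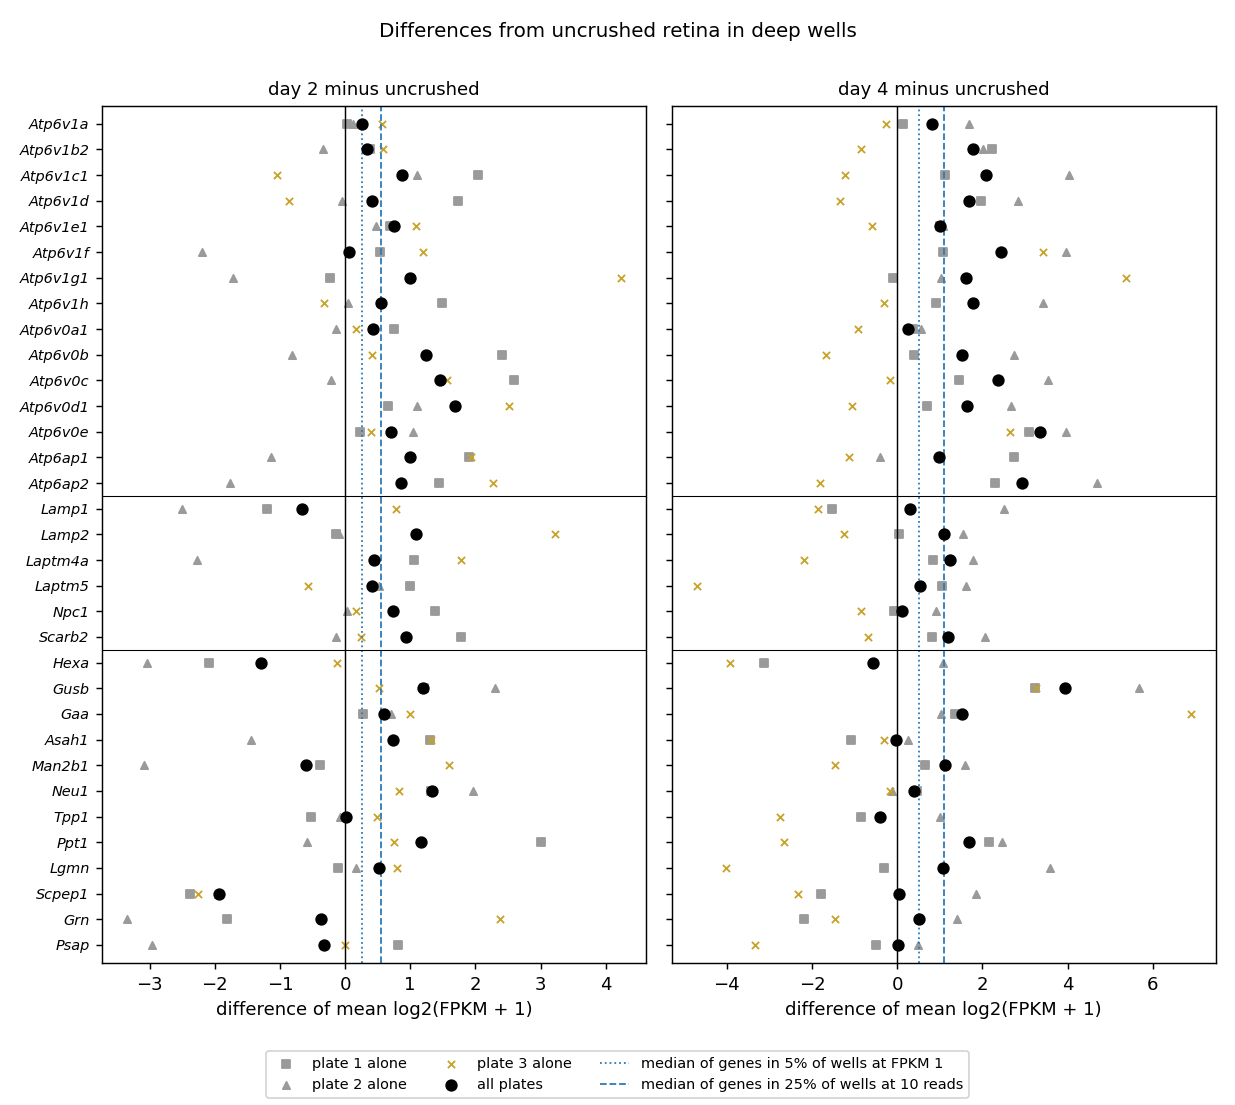
Difference in mean log2(FPKM + 1) for each of the 33 genes between day 2 and uncrushed deep wells (left) and between day 4 and uncrushed deep wells (right). Black dots use all plates, grey squares and triangles plates 1 and 2, and yellow crosses plate 3. Dotted and dashed lines are medians of all genes under the 2 filters. At day 4 the black dots of the pump genes lie mostly right of both lines, and most plate 3 crosses lie left of 0.

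Levels varied widely between wells of a group. In uncrushed retina 31 of the 33 genes were at 0 in at least 1 deep well, as were 31 at day 2 and 29 at day 4, and the ranges of the 3 groups overlapped for every gene. The median FPKM of a pump gene reached 1 for 3 of 15 genes in uncrushed wells, 5 at day 2 and 7 at day 4. In the next paragraphs the lowest value of a gene is 0 in each group unless another is given.

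Among V1 genes, which form the head and stalk of the pump, Atp6v1f and Atp6v1g1 had the highest levels per length. Atp6v1f, a small subunit of the central rotor stalk, had a median FPKM of 1.39 and a highest of 3974 in uncrushed wells, 1.8 and 2437 at day 2, and 218 and 2927 at day 4. It was held by 13 of 39, 11 of 25 and 16 of 24 wells and differed by 2.43 at day 4 (1.08, 3.96 and 3.43 within plates) and by 0.06 at day 2. Most day 4 wells thus held it and most wells of the other groups did not, although the highest single value was in an uncrushed well. Atp6v1g1, a subunit of the peripheral stalk, had a median FPKM of 4.91 and a highest of 860.2 in uncrushed wells, 101 and 11494 at day 2, and 142 and 19115 at day 4. Its difference at day 4 was 1.61, with -0.09, 1.03 and 5.38 within plates, and it was highest on plate 3 with its 2 day 4 wells.

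The other V1 genes were found in few wells. Atp6v1c1, which joins the head to the membrane part when the pump assembles, had medians (highest values in parentheses) of 0 (407), 0 (478) and 0.564 (284) FPKM in uncrushed, day 2 and day 4 wells and was held by 4 of 39, 6 of 25 and 11 of 24. Atp6v1b2, a subunit of the ATP-splitting head, had 0 (324), 0 (551) and 0.462 (378) FPKM and was held by 4 of 39, 4 of 25 and 9 of 24 wells. The rotor gene Atp6v1d had 0 (209), 0 (287) and 0.505 (241) FPKM and was held by 4 of 39, 4 of 25 and 11 of 24. These 3 genes were at 0 in most uncrushed wells and differed at day 4 by 2.07, 1.79 and 1.68, each above 0 on plates 1 and 2 and below 0 on plate 3. Atp6v1e1, of the peripheral stalk, had 0 (482), 0 (624) and 0.58 (149) FPKM, was held by 7 of 39, 7 of 25 and 10 of 24 wells and differed by 1.01 at day 4, or 0.87 without neutrophil or rod wells. Atp6v1h, a regulatory subunit, had 0 (17.1), 0 (98.8) and 0.0447 (181) FPKM, was held by 1 of 39, 4 of 25 and 8 of 24 and differed by 1.77. The catalytic subunit gene Atp6v1a stayed under 1 at both days, with 0.27 at day 2 and 0.83 at day 4, and was held by 4 of 39, 4 of 25 and 6 of 24 wells.

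Of the V0 genes, Atp6v0e had the highest difference at day 4. Atp6v0e, a small membrane subunit, had a median FPKM of 0.275 and a highest of 443 in uncrushed wells, 0.336 and 678 at day 2, and 81.1 and 1352 at day 4. It was held by 20.5% (9.3 to 36.5) of uncrushed, 32% (14.9 to 53.5) of day 2 and 70.8% (48.9 to 87.4) of day 4 wells, with the same kind of interval in parentheses. These intervals cover the counting of wells and say nothing of the spread between animals. The mean log2(FPKM + 1) was 1.90 ± 2.98 (SD over 39 wells) in uncrushed retina and 5.25 ± 3.30 (24 wells) at day 4, a difference of 3.35 with 3.09, 3.96 and 2.65 within the 3 plates. Atp6v0e was one of 2 pump genes above 0 on all 3 plates at day 4, the other being Atp6v1f. On plate 3 the 2 day 4 wells had 0 and 1352 FPKM of Atp6v0e and 5.73 and 2927 FPKM of Atp6v1f. For both genes the higher of these wells set the plate 3 sign. At day 2 the difference of Atp6v0e was 0.70, or 1.63 without neutrophil or rod wells.

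Atp6v0c encodes the proteolipid of the rotating ring that carries the protons. It had a median FPKM of 2.46 and a highest of 440.4 in uncrushed wells, 69.6 and 392 at day 2, and 147 and 343 at day 4, and was held by 17 of 39, 17 of 25 and 18 of 24 wells. The difference was 1.46 at day 2 and 2.37 at day 4, the latter 1.45, 3.55 and -0.16 within plates. Both crushed groups were high in their median and the uncrushed group low, while the highest values of the 3 groups lay close together. Reads of Atp6v0c could be split with its copies Atp6v0c-ps1 and Atp6v0c-ps2, which had mean levels of 9.66 and 131 reads per 1000000 (RPM) against 316 for Atp6v0c. Its ring partner Atp6v0b had a median FPKM of 0.415 and a highest of 1048 in uncrushed wells, 81.6 and 2108 at day 2, and 105 and 893 at day 4, with differences of 1.24 at day 2 and 1.53 at day 4. An antisense gene, Gm12841, overlaps Atp6v0b, and the strand setting of the counting is not given in the sources used here.

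Atp6v0d1, which couples the stalk to the ring, was the pump gene with the highest difference at day 2, 1.69 (0.65, 1.10 and 2.52 within plates). It had a median FPKM of 0 and a highest of 1091 in uncrushed wells, 2.35 and 628 at day 2, and 4.02 and 435 at day 4, and was held by 12.8% (4.3 to 27.4), 44% (24.4 to 65.1) and 54.2% (32.8 to 74.4) of wells. Its difference at day 4 was 1.63, so day 2 and day 4 wells lay -0.07 apart (day 4 minus day 2). Atp6v0a1, the large subunit that forms the proton channels, was held by 3 of 39, 6 of 25 and 5 of 24 wells and had the lowest difference of the pump at day 4, 0.25. The accessory gene Atp6ap2, also known as the prorenin receptor, had a median FPKM of 0 and a highest of 8346 in uncrushed wells, 0.84 and 3117 at day 2, and 126 and 773 at day 4, and differed by 2.94 at day 4 (2.29, 4.70 and -1.81 within plates). Its highest uncrushed value lay well above its highest day 4 value, and by the log2 ratio of mean FPKM the day 4 difference was -0.70. The second accessory gene, Atp6ap1, differed by 0.99 and 0.98 at days 2 and 4.

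At day 2 the pump genes stood closer to uncrushed retina. Over all 33 members the difference from uncrushed wells was above 0 for 27 (background 70.5% of 9716 genes), 1 or more for 7 (background 13.8%) and -1 or less for 2 (background 1.06%), with a median of 0.60 against 0.26 for all genes. Among genes held by 25% or more of wells the members counted 5 of 20 (25%) at 1 or more and 1 at -1 or less, with backgrounds of 33.6% and 4.53%. The pump median was 0.75 with 15 of 15 above 0 and 3 at 1 or more, Atp6v0d1, Atp6v0c and Atp6v0b of V0. In wells without neutrophil or rod markers the median was 0.33 over all genes and 1.01 over genes held by 25% or more of wells. There, 13 members were at 1 or more and 1 at -1 or less. Of the 13, 7 were pump genes: Atp6v0e, Atp6v1c1 (1.46), Atp6v1g1 (1.42) and Atp6ap1 (1.51) beside those 3. No share of all genes at 1 or more or -1 or less in these wells stands beside these counts. The median of 1.01 over genes held by 25% or more is itself past 1, so the counts are not read as particular to the members. Over all deep wells the V0 median was 1.24 and the V1 median 0.48. Within plates the pump median was 0.75, -0.13 and 0.58. The medians of all genes on these plates were 0.40, 0 and 0.19, and 0.85, 0.09 and 0.40 among genes held by 25% or more. Plate 2 had 6 deep day 2 wells. In wells between 2636 and 5145 genes the day 2 pump median was -0.24.

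The 6 membrane genes differed less than the pump. Their median was 0.58 at day 2 and 0.81 at day 4 (6 of 6 above 0, 3 at 1 or more, with backgrounds of 82.3% and 26.5%). Within plates the day 4 median was 0.43, 1.69 and -1.56. Laptm5, a transmembrane protein of lysosomes in blood-derived and immune cells, had 0.548, 477 and 3205 (lowest, median and highest FPKM) in uncrushed wells, 2.02, 494 and 1686 at day 2, and 3.26, 564 and 1035 at day 4. It was never at 0 and was held by 31 of 39, 21 of 25 and 22 of 24 wells, and its difference was 0.42 at day 2 and 0.53 at day 4. Lamp1, a main glycoprotein of the lysosomal membrane, had a median FPKM of 44.1 and a highest of 3697 in uncrushed wells, 8.53 and 938 at day 2, and 63.7 and 1011 at day 4. Its differences were -0.66 and 0.29, with -1.54, 2.50 and -1.87 within plates at day 4. Neither of the 2 most abundant membrane genes reached a difference of 1 over all deep wells, while without neutrophil or rod wells Laptm5 was at 1.06 at day 2 and Lamp1 at 1.02 at day 4.

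Lamp2, its partner and a receptor for chaperone-mediated autophagy, was the membrane gene past 1 at both days. It had a median FPKM of 1.02 and a highest of 544 in uncrushed wells, 21 and 473 at day 2, and 35.7 and 237 at day 4, with differences of 1.08 at day 2 (-0.14, -0.09 and 3.23 within plates) and 1.09 at day 4 (0.05, 1.55 and -1.26). Without neutrophil or rod wells the day 2 value was 0.32, and without plate 3 as well it was -1.28. Laptm4a, a small transmembrane protein of late endosomes and lysosomes, had 0.576 (1862), 1.19 (1046) and 73.2 (297) FPKM (medians, with highest values in parentheses) and differed by 1.23 at day 4. Scarb2, a membrane protein that also carries a newly made enzyme to the lysosome, had 0 (206), 0 (284) and 0.158 (122) FPKM, was held by 4 of 39, 6 of 25 and 8 of 24 wells and differed by 1.19. Npc1, the exporter of cholesterol from the lysosome, was held by 4 of 39, 7 of 25 and 5 of 24 wells with a difference of 0.10 at day 4, and it overlaps Rmc1 on the other strand over 2612 bases.

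The hydrolase class was mixed. Its median was 0.27 at day 2 (7 of 12 above 0, 3 at 1 or more and 2 at -1 or less) and 0.46 at day 4 (9 of 12 above 0, 5 at 1 or more). The backgrounds above 0 were 70.5% at day 2 and 82.3% at day 4, and those at 1 or more 13.8% and 26.5%. Within plates the day 4 median was -0.40, 1.24 and -1.90, so its direction differed between plates 1 and 2. Without plate 2 it was -0.18, and in wells between 2636 and 5145 genes it was -1.32. With neutrophil and rod wells left out it was 0.71 at day 2 (10 of 12 above 0) and 1.07 at day 4 (11 of 12 above 0, 6 at 1 or more). In the remaining wells 74% of all genes were above 0 at day 2 and 82.3% at day 4. Genes held by 25% or more of these wells had medians of 1.01 and 1.35. No share of all genes at 1 or more in these wells stands beside the count of 6. Gusb, the β-glucuronidase that splits glucuronic acid from sugar chains, had the highest difference of all 33 genes at day 4, 3.94. It had a median FPKM of 0.364 and a highest of 385 in uncrushed wells, 0.202 and 474 at day 2, and 131 and 2866 at day 4. Its share of wells was 12.8% (4.3 to 27.4), 36% (18 to 57.5) and 66.7% (44.7 to 84.4), with intervals for the counting of wells alone. The mean log2(FPKM + 1) was 1.35 ± 2.34 (SD, 39 wells) against 5.29 ± 3.94 (24 wells), and the difference was 3.23, 5.67 and 3.27 within plates. On plate 3 the 2 day 4 wells had 0 and 1645 FPKM. At day 2 the difference was 1.19.

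Other hydrolase genes above 1 at day 4 were Ppt1, Gaa, Man2b1 and Lgmn. Ppt1, which removes fatty acids from proteins, had a median FPKM of 2.22 and a highest of 2394 in uncrushed wells, 38.5 and 2095 at day 2, and 76.3 and 1365 at day 4, with differences of 1.17 at day 2 and 1.70 at day 4. It overlaps Cap1 on the other strand. Gaa, the glycogen-splitting α-glucosidase, had a median of 0 in every group with highest values of 228, 99.3 and 3046 FPKM, was held by 1 of 39, 4 of 25 and 6 of 24 wells, and differed by 1.53 (1.35, 1.03 and 6.89 within plates). The plate 3 value comes from 2 wells. Man2b1, an α-mannosidase, had a median FPKM of 2.61 and a highest of 799 in uncrushed wells, 1.01 and 1060.1 at day 2, and 83.6 and 376 at day 4, and differed by -0.59 and 1.13, or 0.08 and 1.55 without neutrophil or rod wells. Lgmn, the asparagine-cutting protease that matures cathepsins, had 0.713, 571 and 3939.6 (lowest, median and highest FPKM) in uncrushed wells, 0.735, 749.8 and 2427 at day 2, and 0.505, 876 and 3655 at day 4. It was held by 29 of 39, 21 of 25 and 20 of 24 wells and differed by 0.52 at day 2 (2.34 without neutrophil or rod wells) and by 1.08 at day 4, with -0.30, 3.59 and -4.02 within plates and -0.63 without plate 2.

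Neu1, a sialidase, was above 1 only at day 2 among the 2 days (1.33, then 0.40), with medians and highest values of 0.0945 (539.9), 0.205 (744) and 0.133 (188) FPKM, and was held by 2 of 39, 6 of 25 and 5 of 24 wells. Without neutrophil or rod wells its day 2 difference was 0.01, with 2 of 19 day 2 wells holding it, and its median was 94.3 FPKM in the 10 neutrophil wells against 0.11 in the 74 wells with neither marker set. Over all deep wells Scpep1 and Hexa were the 2 genes at -1 or less at day 2, and without neutrophil or rod wells Scpep1 (-1.61) was and Hexa (-0.16) was not. Scpep1, a serine carboxypeptidase, had a median FPKM of 0.353 and a highest of 5451 in uncrushed wells, 0 and 381 at day 2, and 0.245 and 226 at day 4. It was held by 28.2% (15 to 44.9) of uncrushed, 8% (0.984 to 26) of day 2 and 37.5% (18.8 to 59.4) of day 4 wells. Its difference was -1.93 at day 2 (-2.37, -1.96 and -2.26 within plates) and 0.03 at day 4, so day 4 lay 1.96 above day 2. An antisense gene, Scpep1os, overlaps it. Hexa, the α chain of β-hexosaminidase, had a median FPKM of 628 and a highest of 4874 in uncrushed wells, 281 and 1734 at day 2, and 497 and 3343 at day 4. It was held by 25 of 39, 15 of 25 and 16 of 24 wells, and its difference was -1.30 at day 2 (-2.09, -3.04 and -0.13) and -0.57 at day 4 (-3.14, 1.08 and -3.92), the latter 0.18 without neutrophil or rod wells. Of the 10 neutrophil wells 1 held Hexa, with a median of 1.14 FPKM against 578 in the wells with neither marker set.

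Grn, the gene of progranulin, a secreted protein that is cut into granulins in the lysosome, had 0, 224 and 2618 (lowest, median and highest FPKM) in uncrushed wells, 0, 87.3 and 1718 at day 2, and 0.676, 495 and 1792 at day 4. It differed by -0.36 at day 2 and 0.51 at day 4, the latter -2.19, 1.40 and -1.47 within plates. With neutrophil and rod wells left out these were 0.76 and 1.69. Psap, the precursor of the saposins that help enzymes reach lipids, differed by -0.32 and 0.01, and without those wells by 0.66 and 0.59. The acid ceramidase gene Asah1 differed by 0.73 and -0.03 (1.44 and 0.20 without them), and the tripeptidyl peptidase gene Tpp1 by 0.01 and -0.40. In uncrushed wells the order of median FPKM ran from Hexa (628) and Lgmn (571) to Laptm5 (477), Grn (224), Psap (163) and Lamp1 (44.1), and every other member was under 5. The ranges of neighbours in that order overlapped. FPKM divides by the union of all exons of a gene, which is long for Npc1 (11317 bases), Atp6v1h (9746) and Lamp2 (9552), so reads of these genes are divided by more bases than those of the short genes.

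Between day 2 and day 4 the pump genes were again the class with the highest median. The difference, day 4 minus day 2, was above 0 for 26 of 33 members (background 70% of 12615 genes), 1 or more for 10 (background 12%) and -1 or less for 0 (background 1.23%). Among genes held by 25% or more of wells, 8 of 26 members (30.8%) were at 1 or more and 0 at -1 or less, with backgrounds of 29.6% and 2.79%. Medians were 0.91 for the pump, 0.18 for membrane and 0.64 for hydrolase genes, against 0.22 for all genes. Gusb (2.75), Atp6v0e (2.64), Atp6v1f (2.38) and Atp6ap2 (2.08) led. Within plates the pump median was 0.14, 2.90 and -1.09, and without plate 2 it was -0.07, so the direction depended on plate 2. The medians of all genes on these plates were 0.14, 0.61 and -0.57, and 0.23, 1.72 and -2.02 among genes held by 25% or more. The comparisons share wells: each group enters 2 of the 3.

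In the wells that held a gene, its level was lower at day 4 for most members. Over wells with 10 or more reads of the gene, the difference in mean log2(FPKM + 1) between day 4 and uncrushed retina could be computed for 30 genes (held by 3 or more wells in both groups). It was above 0 for 9 and below 0 for 21, with a median of -0.36. Of 14 pump genes 4 were higher and 10 lower (median -0.60). Atp6v0e was at -0.23, Atp6v0d1 at -1.52, Atp6v1f at -1.04, Atp6ap2 at 0.51 and Gusb at 0.60. The hydrolase genes split 5 and 5, and all 6 membrane genes were lower. Over all 4454 genes that could be computed the median was -0.97, with 84.6% lower. For the 21 members that were lower, a higher share of wells went together with a lower level in the wells that held them. The cut of 10 reads is fixed, while deep wells had a median of 507813 reads in uncrushed retina and 853209 at day 4. In a well with more reads the cut lies at a lower level, and its part in these values was not tested.

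**Figure D3:**
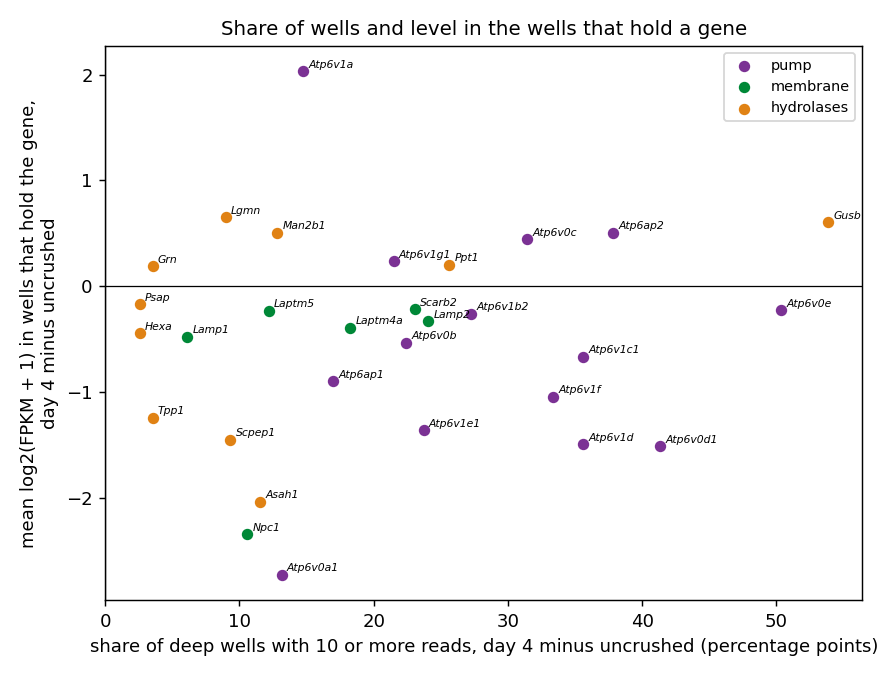
Each point is 1 of the 30 genes held by 3 or more deep wells both in uncrushed retina and at day 4, coloured by class. The horizontal axis is the difference in the share of wells with 10 or more reads (percentage points) and the vertical axis the difference in mean log2(FPKM + 1) over the wells that held it. All points lie right of 0, and 21 of 30 lie below 0 on the vertical axis.

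Summed over a class, the median well gave a larger part of its reads to the pump at day 4 than in uncrushed retina, while the medians of the other classes were lower over all deep wells. The 15 pump genes summed to 1.65, 2352 and 21860.2 RPM (lowest, median and highest well) in uncrushed retina, 4.8, 2478 and 15478 at day 2, and 17.9, 4147 and 21708 at day 4. The ranges overlapped almost fully, and 12 uncrushed, 3 day 2 and 1 day 4 wells had under 100 RPM. Within plates the uncrushed and day 4 medians were 4251 and 3864 on plate 1, 1917 and 4000.3 on plate 2 and 1323 and 14942 on plate 3. Plate 1 therefore showed no higher sum. In the highest well of each group 1 gene made up most pump reads: Atp6ap2 with 99.96% in uncrushed retina, and Atp6v1g1 with 84.3% at day 2 and 99.94% at day 4. The gene with most reads supplied a median of 51.1% of pump reads per uncrushed well, 40% at day 2 and 30.2% at day 4.

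The membrane genes summed to medians of 4422, 4214 and 3485 RPM in uncrushed, day 2 and day 4 wells. The hydrolase genes summed to 12406, 7826 and 10500.5 RPM. Per 100 hydrolase reads there was a median of 19.3 pump reads in uncrushed wells, 30.9 at day 2 and 37.8 at day 4. These medians include the wells with neutrophil or rod markers, whose part in the ratio was not tested. On plates 1 and 2 this ratio was 24.5 and 17.1 in uncrushed wells and 41.5 and 31.3 at day 4. Without neutrophil and rod wells the hydrolase median at day 2 was 11056 RPM and that at day 4 11747 RPM, against 11574 in uncrushed retina. The 10 wells with neutrophil markers had a median of 2422 RPM of hydrolase reads and 1793 RPM of pump reads, against 11559 and 2964 in the 74 wells with neither marker set. Without the neutrophil and rod wells the 3 hydrolase medians thus lay close together. The part of those wells in the lower sums of the crushed groups was not tested.

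**Figure D4:**
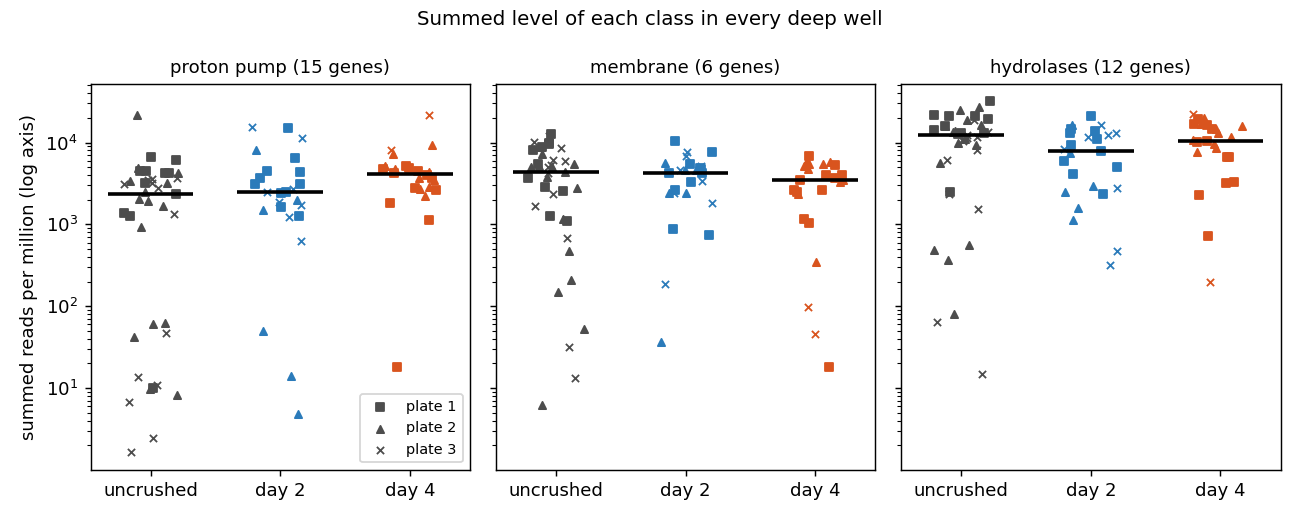
Reads per 1000000 summed over the 15 pump, 6 membrane and 12 hydrolase genes (log axis) in each deep well of uncrushed retina, day 2 and day 4. Symbols give the plate, points are spread sideways for display and bars are medians. The pump median is highest at day 4 (4147 RPM), and uncrushed wells reach down to 1.65 RPM.

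How many of the 33 genes a well held followed how many genes it held in all. Uncrushed wells held 0 to 27 members with a median of 11, day 2 wells 1 to 27 with a median of 11, and day 4 wells 1 to 32 with a median of 14. Spearman's rho between members held and genes with a read was 0.80 over the 39 uncrushed wells, 0.91 over the 25 day 2 wells and 0.93 over the 24 day 4 wells, as a description, since both counts come from the same library and its depth. The summed pump RPM followed the number of genes less, at 0.39, 0.16 and 0.03. Pump and hydrolase sums went together in uncrushed wells (0.51), with 0.07 at day 2 and -0.0043 at day 4, and both sums share the well's total. Gpr84, the receptor named in the series title, was at 10 or more reads in 5, 6 and 12 wells of the 3 groups. These had medians of 3411, 2617 and 3841 RPM of pump reads against 1967, 2007 and 4406 in wells without it. Their median number of genes was 4566, 6166.5 and 8441, against 2836.5, 3243 and 3275, and its part was not tested.

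**Figure D5:**
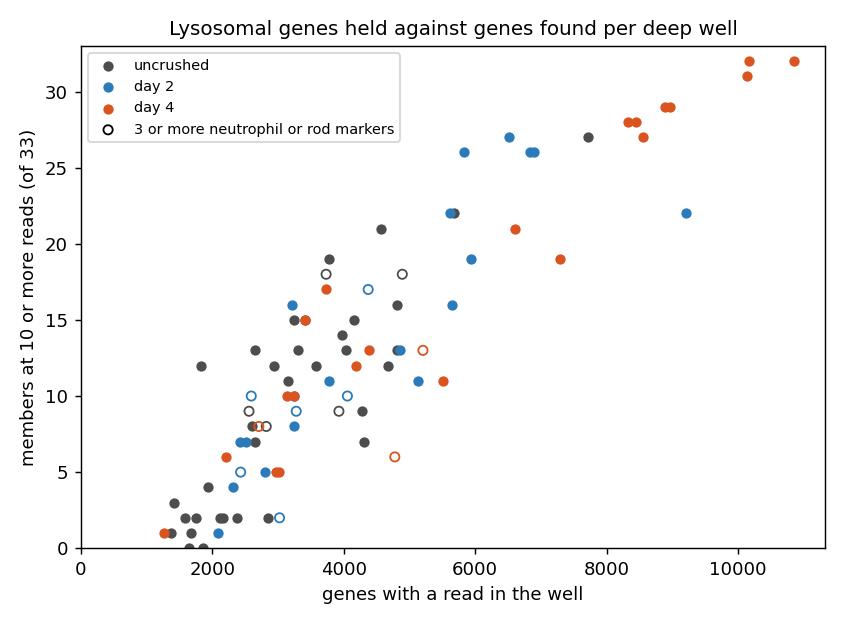
Number of the 33 members at 10 or more reads (vertical axis) against the number of genes with a read (horizontal axis) in each deep well, coloured by group. Open circles mark wells that held at least 3 markers of neutrophils or of rods. In each group the points lie higher towards the right, and the 2 wells with the most members, 32 of 33, are day 4 wells with 10159 and 10849 genes.

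Other genes of the system gave the wider view, for lists chosen with earlier results of these data known. Their counts at day 4 are read against 82.3% of all genes above 0 and 26.5% at 1 or more, and those at day 2 against 70.5% and 13.8%. Of 11 further pump genes, mostly tissue-specific forms, 2 passed the filter at day 4, Atp6v0a2 at 1.44 and Tcirg1 at 1.22. At day 2 there were 3, Atp6v0a2 (0.92), Atp6v1g2 (0.38) and Tcirg1 (-0.13). Of 30 other lysosomal hydrolases 25 passed, with 22 above 0 and 6 at 1 or more (median 0.67). Near the ends of that list were Ctsa at 1.84 and Hyal1 at -0.02. At day 2, 23 passed, with 14 above 0 and 2 at 1 or more (median 0.16), and near the ends were Plbd2 at 1.24 and Dnase2a at -0.40. Of 11 cathepsins, the proteases of the lysosome, 10 passed, with 9 above 0, 7 at 1 or more and 1 at -1 or less (median 1.29). Ctsc (3.36) and Ctso (2.01) were highest, and Ctss (-1.03), which every deep well of both groups held, and Ctsw (0.06) were lowest. At day 2 Ctsh (1.67) and Ctsc (1.42) were highest, and Ctss (-0.96) and Ctsf (-0.59) lowest.

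Of 24 other membrane genes 20 passed at day 4, with 18 above 0 and 8 at 1 or more (median 0.86). Cd63 (2.72) and the macrophage glycoprotein gene Cd68 (2.40) were highest and Tpcn1 (-0.32) and Slc29a3 (-0.10) lowest. At day 2 the metal transporter gene Slc11a1 (1.91) and Cd63 (1.56) were highest, with Npc2 (-0.48) and Slc29a3 (-0.27) lowest. Of 18 regulators 13 passed, 12 of them above 0 at day 4 and 6 at 1 or more (median 0.88). Lamtor5 (2.59) and Lamtor4 (2.17), parts of the Ragulator complex that anchors mTORC1 to the lysosome, were highest, while the transcription factor genes Mitf (-0.01) and Tfeb (0.13) were lowest. Tfeb was held by 3 day 4 and 2 uncrushed wells. The same 2 Lamtor genes were highest at day 2 (1.62 and 1.94), with Lamtor3 (-0.65) and Tfe3 (-0.21) lowest. Of 13 receptor and trafficking genes 10 passed at day 4, and all 10 were above 0 (median 0.76), from M6pr (1.77) and Vps26a (1.39) to Rab7 (0.43) and Gga1 (0.16), and at day 2 they ran from Gga1 (0.72) and Vps35 (0.58) to Nagpa (-0.02) and M6pr (-0.16). At day 4 the share above 0 was over its background for each of these lists. The share at 1 or more was over its background for each list except the other hydrolases. That background was 53.4% among genes held by 25% or more of wells. At day 2 the shares of the lists lay on both sides of the backgrounds. The medians of these lists at day 4 lay between those of the member hydrolases (0.46) and the pump (1.68).

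Markers of neutrophils, which also carry lysosomal granules, were the marker list with the highest median at day 2. All 7 neutrophil markers that passed the filter were above 0 at day 2 (median 1.75), from S100a9 (3.10) and S100a8 (3.05) to Lcn2 (0.83) and Ly6g (0.40), and at day 4 their median was 0.48, from S100a8 (0.79) and Mmp9 (0.50) to Retnlg (-0.07) and Lcn2 (-0.15). The summed level of the list ran from 0 to 106118 RPM over uncrushed, 0 to 91736 over day 2 and 0 to 69966 over day 4 wells, and 2 of its 10 genes were at 0 in every well of each group. Leaving out the wells with neutrophil or rod markers gave day 2 medians of 0.99 for the pump, 0.90 for membrane and 0.71 for hydrolase genes. The median there was 0.33 over all genes and 1.01 over genes held by 25% or more of wells. The microglia markers had a median of -0.63 at day 2, from Itgam (2.52) and Aif1 (1.33) to Cx3cr1 (-1.29) and Csf1r (-2.03). Without neutrophil or rod wells the day 2 median was 0.55, with 9 of 11 above 0. At day 4 the median was 0.33 (0.95 without those wells), from Tmem119 (1.53) and Itgam (1.45) to Csf1r (-0.89) and P2ry12 (-1.59). Rod markers had a median of 0.21 at day 2, from Prph2 (0.42) and Pde6g (0.37) to Rom1 (0.10) and Gnat1 (-0.03), and 0.33 at day 4, from Rcvrn (0.84) and Rom1 (0.40) to Gnat1 (0.05) and Sag (-0.09). The cone markers Pde6h and Gngt2 were at 2.13 and 0.19 at day 2 and at 1.63 and -0.48 at day 4. Medians for monocytes were 0.04 and 0.51, and for Muller glia and astrocytes -0.36 and -0.21. Erythrocyte markers were at 0 in every deep well, and T cell markers at 0 in every day 4 well.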

How the data were processed

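Single sorted retinal cells were measured from amplified cDNA with Nextera XT libraries, per the labels' protocols. The submitters' processing notes name Trim Galore 0.4.4, Trimmomatic 0.36, cutadapt 1.16, STAR 2.7.2b, featureCounts 1.6.1 and the build GRCm38.p6, with no settings. The authors deposited FPKM for 55364 genes in 144 wells, with the other listed value, gene length, per the file headers. FPKM times length in kilobases summed to 1000000 per well (RPM). The most frequent value above 0 was taken as 1 read, and 36.4% of values under 100 were then whole within 0.01, so reads are estimates and no count test was run. The labels name no molecular identifiers, so intervals cover counting error only.

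Deep wells have 50000 or more reads. Differences are of means over wells of log2(value + 1), with no test, because no animal is named. They understate changes of low genes. Genes entered the background when at FPKM 1 in 5% of wells, or at 10 reads in 25%. Lowest, median and highest values are printed for members differing by 1 or more in size at either day and for the 3 per class highest in uncrushed wells, others by range or difference. Of each other list the 2 highest and 2 lowest are named, and lists with under 4 genes past the filter are given whole or by their median. For the other hydrolases, 1 gene at each end is not reported here. The members and lists were chosen with earlier results of these data known. The code was tested on simulated data. Alternatives were the pseudocount, filter, wells, plates, scaling, thinning and tag, and 2 were chosen after seeing the data. Doublets were not called. Tools were matplotlib 3.10.9, scipy 1.17.1, numpy 2.4.6 and pandas 2.3.3 under Python 3.11.15.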

Additional observations from a re-analysis of the deposited data

How the results depend on the processing

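Each class median, each count of members at 1 or more or -1 or less, and each named member was recomputed under 15 other settings. The median of all genes moved with the setting too. Between day 4 and uncrushed wells it was 1.01 with pseudocount 0.1 and -0.04 in wells within the interquartile range of genes. Between day 4 and day 2 it was 0.34 without plate 1. No share of all genes stands beside the counts below, so they are not read as particular to the members. No paired analysis was possible because the values come from no test and the labels tie no wells of different groups to 1 animal. Differences within each plate, which all 3 groups share, stand beside the results. The day 4 pump median stayed above 0 under all 15 (0.33 to 2.88), as did Gusb (2.50 to 5.19) and Atp6v0e (1.91 to 4.61), and Scpep1 at day 2 stayed below 0 (-3.25 to -1.05). For what follows the cause was not tested. In wells within the interquartile range of genes (23 uncrushed, 11 day 2 and 10 day 4), medians changed sign at day 2 for the pump (-0.24) and hydrolases (-1), at day 4 for membrane (-0.51) and hydrolases (-1.32), and for membrane day 4 minus day 2 (-0.58). Members at 1 or more there were 3 at day 2 and 3 at day 4, and at -1 or less 9, 10 and 5 (day 4 minus day 2). Members that changed sign there were Atp6v0b (-1.01 at day 2 and -1.31 at day 4), Gusb (-0.83) and Ppt1 (-0.11) at day 2, and Laptm4a (-1.45), Scarb2 (-0.62), Gaa (-0.35), Man2b1 (-0.52) and Lgmn (-0.35) at day 4. With the log2 ratio of mean FPKM, signs changed for hydrolases (-0.36 and -0.55 at days 2 and 4), membrane (-0.48 at day 4, -0.40 for day 4 minus day 2), and at day 4 for Atp6v1e1 (-0.75), Atp6v1f (-0.11), Atp6v0d1 (-0.12), Atp6ap2 (-0.70), Laptm4a (-0.49) and Man2b1 (-0.32). The counts were then 11 at 1 or more at day 4 and 4 for day 4 minus day 2, and 4, 6 and 5 at -1 or less. Without plate 2 the medians were -0.18 for hydrolases at day 4, and for day 4 minus day 2 -0.07 (pump), -0.75 (membrane) and -0.76 (hydrolases). Lgmn was then -0.63, counts at 1 or more were 12, 10 and 4, and counts at -1 or less 1, 4 and 4. Without plate 1 Atp6v0b at day 2 was -0.12, and day 4 minus day 2 gave 22 at 1 or more and 1 at -1 or less. Without plate 3 the counts at -1 or less were 5 at day 2 and 1 for day 4 minus day 2. Over all wells the membrane median for day 4 minus day 2 was -0.02 and Laptm4a at day 4 -0.37, with 4 and 11 at 1 or more and 1 at -1 or less at day 2 and for day 4 minus day 2. Pseudocount 0.1 gave 15 at 1 or more at day 2 and 1 at -1 or less for day 4 minus day 2. Pseudocount 10 gave 0, 8 and 4 at 1 or more and 1 at -1 or less at day 2. Without neutrophil or rod wells the day 2 counts were 13 and 1, with 1 at -1 or less for day 4 minus day 2. In microglia marker wells the hydrolase median at day 2 was -0.01, Neu1 -0.07, and the counts 12 and 1, with 2 at -1 or less for day 4 minus day 2. Wells with 0 neutrophil and 0 rod markers, chosen after seeing the data, gave -0.10 for membrane day 4 minus day 2, 17 and 1 at day 2, and 3 at -1 or less for day 4 minus day 2. Without plate 3 and without neutrophil or rod wells, also chosen after seeing the data, the day 2 pump median was 1.35, Lamp2 -1.28, Neu1 -0.51 and the day 2 counts 15 and 5, with 2 at -1 or less for day 4 minus day 2. Leaving out the wells with the conflicting tag gave 17 at 1 or more and 2 at -1 or less for day 4 minus day 2. Median ratio scaling gave 1 and thinning 2 at -1 or less there, and the 25% filter 1 at -1 or less at day 2. Depth limits what 0 reads means in a well: a gene may be present below detection.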
